A study of Arabidopsis thaliana with 12 samples.

Results

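The transcripts of 9 Arabidopsis ACC synthase genes were followed through an auxin and genotype experiment on whole seedlings. ACC synthases (ACS) are the enzymes that make ACC, the direct precursor of ethylene. The genes were chosen by locus code as ACS1, ACS2, ACS4, ACS5, ACS6, ACS7, ACS8, ACS9 and ACS11, which are 9 of the 37336 genes in the deposited count table. Of these 9, 8 passed the filter on low counts. ACS1 did not, with 0 counts in all 12 libraries.

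The experiment held 4 groups of 3 libraries. They were er erl2 seedlings given IAA, er erl2 seedlings given mock, wild-type seedlings given IAA and wild-type seedlings given mock. The mutant carried the alleles er-105 and erl2-1 of the receptor kinase genes ERECTA (ER) and ERECTA-LIKE 2 (ERL2), and mutant and wild type were both in the Col-0 background. All seedlings were 3 days past germination. They spent 30 min in liquid MS medium after transfer from solid MS. Treatment with 1 uM IAA, a natural auxin, in a DMSO vehicle of 0.02% lasted 30 min, and mock seedlings had only the vehicle. RNA was poly-A selected from whole seedlings, so fewer cells of a type and less RNA per cell cannot be told apart. The labels do not say whether the libraries of a group came from separate plantings, and p-values measure the spread between these libraries.

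ACC synthases turn S-adenosylmethionine into ACC, which ACC oxidases then convert to ethylene. This step usually sets the rate of ethylene production, and induction of ACS genes by auxin is a classic response of seedlings. The isozymes differ mainly at their C termini, which control how long the protein lasts. ACS2 and ACS6 carry sites for stress-activated MAP kinases, ACS4, ACS5, ACS8 and ACS9 are recognised by the ubiquitin ligase adaptor ETO1 and its relatives, and ACS7 lacks both kinds of extension.

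Total counts ranged from 28930625 to 35837999 per library, and levels are given as CPM, counts scaled to the library total after TMM adjustment for composition. The treatment and the genotype were visible in their own check genes. IAA19, an early auxin-response gene, averaged 104.7 ± 22.6 CPM in er erl2 IAA and 14.8 ± 2.57 CPM in er erl2 mock, and 112.4 ± 8.71 CPM in wild-type IAA and 22.5 ± 3.35 CPM in wild-type mock (SD, n = 3 each). ER averaged 6.55 ± 1.86 CPM in er erl2 mock and 60.6 ± 3.44 CPM in wild-type mock (SD, n = 3 each). The labelled tissue was reflected in shoot and root markers alike. Summed over 4 shoot markers the level was 37020 to 41603 CPM in er erl2 libraries and 32460 to 36855 CPM in wild-type libraries, and over 6 root markers it was 2907 to 3355 CPM in er erl2 and 2710 to 3338 CPM in wild type. The root sum was nearly all PYK10 transcript, and the less abundant markers did not all follow it. The root hair gene COBL9 was lower in er erl2 under mock by -0.64 on the log2 scale (edgeR adjusted p = 0.0416), and RHD6, another root hair gene, fell to 2.44 CPM in wild-type IAA, against 5.24 CPM in wild-type mock (edgeR adjusted p = 0.0125). The median log2 fold change of the 6 root markers was -0.31 between genotypes under mock, with 2 of the 6 above 0. It was -0.34 with IAA in wild type, with 3 of the 6 above 0. With IAA in er erl2 and between genotypes under IAA it was -0.01, with 3 of the 6 above 0 in each. None of these 10 markers was at 0 in all libraries. Seed storage transcripts summed to at most 2.40 CPM in any library. All er erl2 libraries exceeded all wild-type libraries in the shoot marker sum. Most of that sum was LHCB1.3 and RBCS1A transcript, and both averaged higher in er erl2 in each treatment. Between genotypes, 3 of the 4 shoot markers had estimates above 0 in each treatment, with a median of 0.17 under IAA and 0.19 under mock. LHCB1.1, a light-harvesting gene, was higher in er erl2 under IAA (0.22) and mock (0.21). The exception was the carbonic anhydrase gene CA1, which was lower under IAA by -0.24 (edgeR adjusted p = 0.0217). The part of these shoot and root marker differences in the ACS results was not tested.

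The members could be told apart at the sequence level. In the RefSeq TAIR10.1 genome, 0 of the 50-base words in the exons of ACS2, ACS4, ACS5, ACS6, ACS7, ACS8, ACS9 and ACS11 occurred elsewhere, and no annotated gene overlapped any of the 9. ACS5 and ACS9 were the most alike pair, with 84.3% identity over their aligned coding sequences, followed by ACS4 and ACS8 with 78.7%. The longest identical runs in the family were 32 bases in ACS6 and ACS7, at coding positions 478 to 509 and 490 to 521, and 29 bases in ACS5 and ACS9, at positions 1201 to 1229 of both. Both runs are shown as the stretches where reads of 2 members are hardest to separate.
ACS6 and ACS7 shared run: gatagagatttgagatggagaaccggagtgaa
ACS5 and ACS9 shared run: gaaccgggttggtttagggtttgtttcgc
ACS1 differed from the rest here. Of its 50-base words, 35.4% also occurred in ACS3 (AT5G28360), an annotated pseudogene that had 0 to 4 counts per library. How reads matching both loci were counted is not given in the sources used here.

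Short sequences upstream of the annotated transcript starts are shown for ACS4, ACS6 and ACS11, which were called with IAA in er erl2, and for ACS8, whose IAA response did not pass the test. The capitals mark TGTCTC and TGTCGG, letters known as binding motifs of auxin response factors, searched on both strands, where GAGACA is TGTCTC on the opposite strand. The motifs do not overlap each other in these windows. Each window is the 250 bases before the start, read 5′ to 3′ on the gene's strand in TAIR10.1. The windows are chr4:6863729-6863978 (plus strand) for ACS6, chr4:4886712-4886961 (plus strand) for ACS11, chr4:17751829-17752078 (plus strand) for ACS8 and chr2:9719595-9719844 (minus strand) for ACS4.
ACS6 upstream: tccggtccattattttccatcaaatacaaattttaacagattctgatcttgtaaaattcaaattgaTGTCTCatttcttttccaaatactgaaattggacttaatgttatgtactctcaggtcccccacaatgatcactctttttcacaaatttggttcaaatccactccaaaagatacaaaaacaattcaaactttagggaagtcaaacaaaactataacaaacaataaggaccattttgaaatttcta
ACS11 upstream: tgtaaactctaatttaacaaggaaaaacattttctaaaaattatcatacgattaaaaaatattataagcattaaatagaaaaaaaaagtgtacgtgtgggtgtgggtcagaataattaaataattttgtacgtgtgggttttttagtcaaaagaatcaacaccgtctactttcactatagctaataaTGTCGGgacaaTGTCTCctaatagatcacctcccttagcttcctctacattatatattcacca
ACS8 upstream: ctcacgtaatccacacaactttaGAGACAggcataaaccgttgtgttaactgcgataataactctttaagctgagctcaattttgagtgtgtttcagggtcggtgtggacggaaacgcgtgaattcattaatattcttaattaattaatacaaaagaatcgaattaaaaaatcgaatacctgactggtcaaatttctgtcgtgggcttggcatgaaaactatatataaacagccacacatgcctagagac
ACS4 upstream: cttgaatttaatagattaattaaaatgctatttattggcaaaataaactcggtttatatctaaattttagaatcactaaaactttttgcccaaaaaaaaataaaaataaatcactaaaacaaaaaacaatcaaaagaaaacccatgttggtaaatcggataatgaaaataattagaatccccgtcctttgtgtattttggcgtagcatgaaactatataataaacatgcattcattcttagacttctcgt
TGTCTC was present in 4 of the 9 member windows, those of ACS5, ACS6, ACS8 and ACS11, and in 10.9% of 27443 windows of the same length before protein-coding genes. TGTCGG was present in the ACS11 window alone among the members and in 4.16% of all windows. In ACS11 the TGTCGG began 63 bases and the TGTCTC 52 bases before the start, with 5 bases between them. In ACS6 the TGTCTC began 184 bases before the start. The broader pattern TGTCNN, which contains both motifs, was in 6 of the member windows and in 74.5% of all windows, and the ACS4 window held none. The annotated ACS9 transcript begins at its start codon, so its window cannot be read as a promoter. These matches describe letters in one window and do not show binding.

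Levels per length were compared as RPKM, the CPM divided by the summed exon length in kilobases. In er erl2 IAA seedlings ACS6 was the most abundant member at 20.9 ± 2.98 RPKM, followed by ACS11 at 13.7 ± 4.07 and ACS4 at 7.73 ± 1.61 RPKM (SD, n = 3). In er erl2 mock seedlings the highest levels were those of ACS7 at 4.45 ± 0.89, ACS6 at 4.07 ± 0.69 and ACS8 at 3.59 ± 0.86 RPKM, and neighbours in this order overlapped between libraries. In wild-type IAA the order began with ACS6 at 22.4 ± 0.62, ACS11 at 19.2 ± 1.77 and ACS4 at 13.1 ± 2.19 RPKM, and the libraries of ACS4 overlapped those of ACS8, next in the order at 10.4 ± 3.04 RPKM. In wild-type mock it began with ACS8 at 8.95 ± 1.49, ACS6 at 8.31 ± 3.08 and ACS11 at 7.23 ± 3.74 RPKM, and these 3 genes overlapped. ACS2, ACS5 and ACS9 were at or below 1.28 RPKM on average in every group. The order did not change when coding length took the place of exon length, but levels did. With coding or longest-transcript length, 21 of 72 levels moved by more than 1 SD of their group. ACS6 in wild-type IAA, for example, stood at 28.1 RPKM by coding length.

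**Figure D1:**
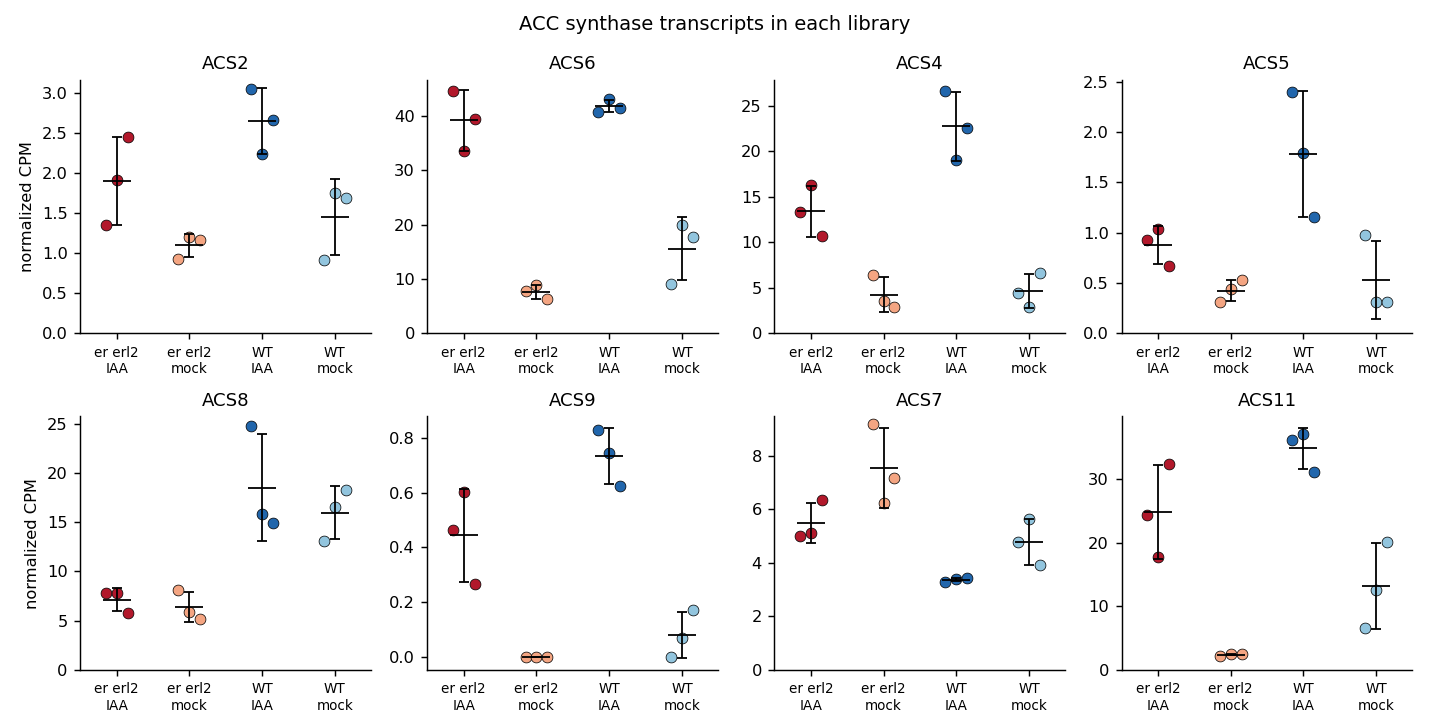
Normalized CPM of the 8 ACC synthase genes with reads, one point per library in each of the 4 groups, with a horizontal bar for the mean and whiskers of 1 SD (n = 3). ACS2, ACS4, ACS5, ACS6, ACS9 and ACS11 stood higher with IAA than with mock in every library of each genotype, with ACS9 only a description. ACS8 was lower and ACS7 higher in er erl2 in both treatments.

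The IAA response of the family was read from IAA against mock within each genotype. In er erl2, ACS4, ACS6 and ACS11 rose, ACS9 was also called higher, 0 members fell, and 4 of the 8 tested did not pass the threshold, an adjusted p under 0.05 in edgeR's quasi-likelihood test with Benjamini-Hochberg adjustment over 21376 genes. Over all genes tested, 1.29% were called higher with IAA in er erl2. In wild type, ACS4 and ACS6 rose, ACS9 was also called higher, 0 members fell and 5 did not pass, where 1.06% of all genes were called higher. Called lower were 0.243% of all genes in er erl2 and 0.154% in wild type. ACS9 passed the low-count filter only through its IAA libraries and so had to differ, and its calls are given as a description. The IAA and mock libraries did not overlap, with IAA higher, for 6 members in each genotype, and this held for 8.53% of all genes in er erl2 and 6.98% in wild type. The members were ACS2, ACS4, ACS5, ACS6, ACS9 and ACS11 in both genotypes, with ACS9 again only a description. With IAA lower, 0 members in er erl2 and ACS7 in wild type did not overlap, where 8.65% and 6.45% of all genes did so in er erl2 and wild type.

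ACS6 (AT4G11280, chr4:6863979-6866116, plus strand, 4 exons), an isozyme stabilised by MAP kinases under stress, stood at 44.7, 33.5 and 39.4 CPM in er erl2 IAA and at 7.67, 8.87 and 6.30 CPM in er erl2 mock. It stood at 40.8, 43.1 and 41.6 CPM in wild-type IAA and at 9.02, 19.9 and 17.7 CPM in wild-type mock. The IAA libraries of both genotypes lay together near the top of the range, and the mock libraries of the mutant lay below those of wild type. ACS6 rose 5.17-fold in er erl2 (log2 fold change 2.37, SE 0.26, edgeR adjusted p = 0.000974) and 2.69-fold in wild type (1.43, SE 0.24, edgeR adjusted p = 0.0208). Every alternative, 20 in all, kept the er erl2 call. In wild type the call did not hold when any 1 of the 3 wild-type IAA libraries was left out, with edgeR adjusted p of 0.0674 to 0.0853, and in a fit of the wild-type groups alone (edgeR adjusted p = 0.194), and also under a block by replicate number, so that it held in 15 of 20.

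ACS2 (AT1G01480, chr1:175706-178406, plus strand, 4 exons), the other MAP kinase substrate with reads, was far lower. It stood at 1.36, 1.91 and 2.45 CPM in er erl2 IAA and at 0.93, 1.20 and 1.16 CPM in er erl2 mock. It stood at 3.05, 2.24 and 2.67 CPM in wild-type IAA and at 0.91, 1.76 and 1.69 CPM in wild-type mock. IAA libraries were above mock libraries in both genotypes, but neither difference passed the threshold. The log2 fold changes were 0.79 (SE 0.28, edgeR adjusted p = 0.267) in er erl2 and 0.87 (SE 0.27, edgeR adjusted p = 0.216) in wild type. ACS1 (AT3G61510, chr3:22763495-22766010, minus strand, 4 exons), the close relative of ACS2, was at 0 counts in all 12 libraries, which allows a level of up to 0.083 to 0.101 CPM per library by a limit of 3 counts. Such limits cover counting error only.

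ACS4 (AT2G22810, chr2:9717602-9719594, minus strand, 4 exons), long used as an auxin-inducible marker of this family, stood at 13.3, 16.3 and 10.7 CPM in er erl2 IAA and at 6.37, 3.502 and 2.82 CPM in er erl2 mock. It stood at 26.6, 19.0 and 22.5 CPM in wild-type IAA and at 4.35, 2.87 and 6.62 CPM in wild-type mock. All IAA libraries were above all mock libraries, and the er erl2 IAA libraries lay below those of wild type. ACS4 rose 3.18-fold in er erl2 and 4.92-fold in wild type. The er erl2 call was close to the threshold (edgeR adjusted p = 0.0487) and held in 6 of 20 alternative fits. It was lost with no count filter (0.0880, edgeR), with DESeq2 size factors (0.0508, edgeR), in a fit of the er erl2 groups alone (0.0744, edgeR) and under both replicate blocks. Of the 12 fits that left out a library it was kept only without wild-type mock replicate 2, wild-type mock replicate 3 or er erl2 mock replicate 1, and the edgeR adjusted p reached 0.185 in the others. The wild-type call (edgeR adjusted p = 0.00877) was lost without wild-type mock replicate 1, with an edgeR adjusted p of 0.0521, and under a block by the numbers in the column names, and held in 18 of 20 alternative fits.

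ACS5 (AT5G65800, chr5:26330746-26332812, minus strand, 3 exons) and ACS9 (AT3G49700, chr3:18434449-18436141, minus strand, 4 exons), a closely related pair altered in ethylene-overproducing mutants, were low throughout. ACS5 had 32, 31 and 20 counts in er erl2 IAA and 10, 13 and 19 counts in er erl2 mock. It had 81, 60 and 35 counts in wild-type IAA and 30, 9 and 9 counts in wild-type mock. Each IAA library exceeded the mock libraries of its genotype in CPM, and wild-type mock replicate 1 stood apart from the other mock libraries. The log2 fold changes of ACS5 were 1.04 (SE 0.45, edgeR adjusted p = 0.397) in er erl2 and 1.74 (SE 0.42, edgeR adjusted p = 0.0642) in wild type. Without wild-type mock replicate 1 the ACS5 difference in wild type was 2.54 on the log2 scale and passed (edgeR adjusted p = 0.00479), and it also passed without wild-type IAA replicate 3, with no count filter (edgeR adjusted p = 0.0315), in the DESeq2 Wald test (adjusted p = 0.0079) and under a block by the numbers in the column names.

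ACS9 had 16, 18 and 8 counts in er erl2 IAA and 0 counts in all 3 er erl2 mock libraries. It had 28, 25 and 19 counts in wild-type IAA and 0, 2 and 5 counts in wild-type mock. Reads of this gene therefore came almost entirely from IAA libraries, 42 counts in er erl2 and 72 in wild type, against 7 in wild-type mock. Taking 3 counts per library as the limit of a count of 0, ACS9 was at least 4.82-fold higher with IAA in er erl2. In wild type the fitted log2 fold change was 3.18 (SE 0.63, edgeR adjusted p = 0.0271). The wild-type mock mean of 2.33 counts lay below the limit of 3 counts, so the size of this change is uncertain. This gene passed the low-count filter only through its IAA libraries, so its call and the fits that kept it are a description. The wild-type call held in 10 of 19 alternative fits. It was lost without wild-type mock replicate 1 or 2, any of the 3 wild-type IAA libraries or er erl2 IAA replicate 1, with an edgeR adjusted p of up to 0.136, in a fit of the wild-type groups alone (edgeR adjusted p = 0.0554) and under both replicate blocks.

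ACS8 (AT4G37770, chr4:17752079-17754157, plus strand, 4 exons), another isozyme recognised by ETO1, stood at 7.85, 7.84 and 5.74 CPM in er erl2 IAA and at 8.13, 5.90 and 5.17 CPM in er erl2 mock. It stood at 24.8, 15.8 and 14.97 CPM in wild-type IAA and at 13.1, 16.5 and 18.3 CPM in wild-type mock. IAA and mock libraries overlapped in each genotype. The log2 fold changes were 0.16 (SE 0.24, edgeR adjusted p = 0.880) in er erl2 and 0.21 (SE 0.22, edgeR adjusted p = 0.797) in wild type. The library with the highest ACS8, wild-type IAA replicate 1, decided the sign of the wild-type estimate, which was -0.06 without it.

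ACS7 (AT4G26200, chr4:13275200-13277188, plus strand, 3 exons), the isozyme without the C-terminal regulatory sites, had lower estimates with IAA. It stood at 5.02, 5.13 and 6.37 CPM in er erl2 IAA and at 9.18, 6.24 and 7.19 CPM in er erl2 mock. It stood at 3.29, 3.40 and 3.42 CPM in wild-type IAA and at 4.77, 5.64 and 3.92 CPM in wild-type mock. The wild-type libraries did not overlap and the er erl2 libraries did. The log2 fold changes, -0.46 (SE 0.16, edgeR adjusted p = 0.269) in er erl2 and -0.50 (SE 0.17, edgeR adjusted p = 0.303) in wild type, did not pass the threshold.

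ACS11 (AT4G08040, chr4:4886962-4889224, plus strand, 4 exons), an isozyme with coding identity of 65.6% to 67.0% to ACS4, ACS5, ACS8 and ACS9, had the largest fitted fold change in er erl2 among members with reads under mock. It stood at 24.4, 17.7 and 32.5 CPM in er erl2 IAA and at 2.23, 2.50 and 2.46 CPM in er erl2 mock. It stood at 36.3, 37.2 and 31.2 CPM in wild-type IAA and at 6.62, 12.6 and 20.2 CPM in wild-type mock. The mutant mock libraries lay close together, and the wild-type mock libraries were spread over a wide range below the IAA libraries. ACS11 rose 10.4-fold in er erl2 (log2 fold change 3.37, SE 0.41, edgeR adjusted p = 0.00272), a call kept in all 20 alternative fits. In wild type the log2 fold change of 1.41 (SE 0.34) did not pass (edgeR adjusted p = 0.138), and without wild-type mock replicate 3 it was 1.86 and passed (edgeR adjusted p = 0.0193). It also passed in the DESeq2 Wald test (adjusted p = 0.0111) and in limma-voom (adjusted p = 0.0136), so whether ACS11 is called in wild type depends on the test used.

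**Figure D2:**
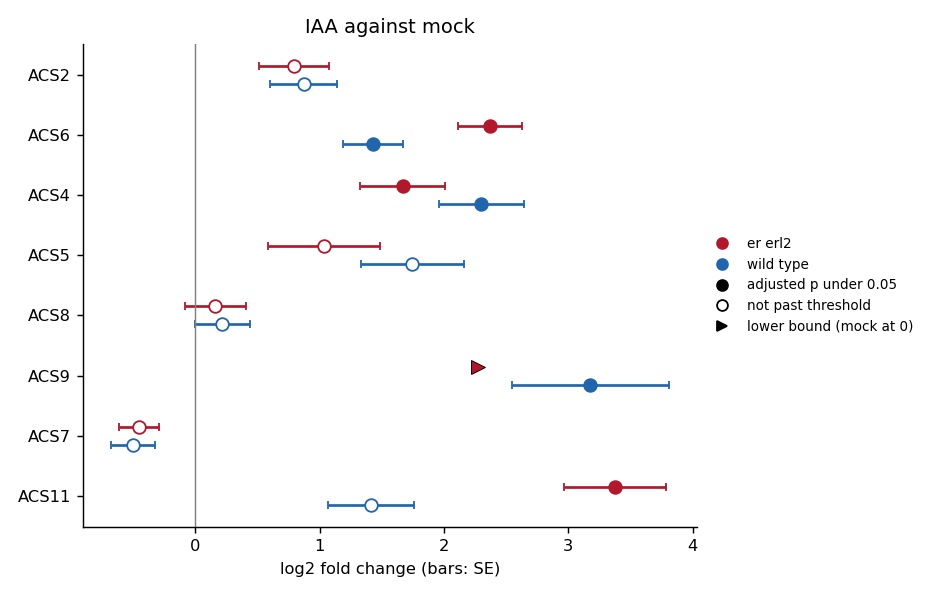
Log2 fold change of IAA against mock for each gene in er erl2 (red, upper) and wild type (blue, lower), with bars of 1 SE from the edgeR fit; filled points passed an adjusted p of 0.05, and the triangle is the lower bound for ACS9 in er erl2, where mock libraries were at 0. ACS6 and ACS11 reached 2.37 and 3.37 in er erl2, and ACS8 lay near 0 in both genotypes. The wild-type ACS9 point rests on a mock mean below the limit of 3 counts, so its size is uncertain.

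The genotypes were compared within each treatment. Under mock, ACS6, ACS8 and ACS11 were lower in er erl2, ACS7 was higher, and the other 4 tested members did not pass. Among all genes tested, 7.33% were called lower and 8.4% higher in er erl2 under mock. Under IAA, ACS8 was lower and ACS7 higher in er erl2, and 6 members did not pass, where 6.84% of all genes were called lower and 7.14% higher. The er erl2 and wild-type libraries did not overlap for ACS6, ACS8 and ACS11 (lower) and ACS7 (higher) under mock, and for ACS4, ACS5, ACS8 and ACS9 (lower) and ACS7 (higher) under IAA. Over all genes such a separation was seen for 16.6% (lower) and 16.9% (higher) under mock, and for 16.9% (lower) and 16.2% (higher) under IAA. These comparisons share their libraries with the IAA comparisons above.

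ACS8 averaged 7.14 ± 1.21 CPM in er erl2 IAA and 18.5 ± 5.43 CPM in wild-type IAA, and 6.40 ± 1.54 CPM in er erl2 mock and 15.98 ± 2.67 CPM in wild-type mock (SD, n = 3 each). In the mutant it was at 38.6% of wild type under IAA and 40.1% under mock. The log2 fold changes were -1.37 (SE 0.23, edgeR adjusted p = 0.00280) under IAA and -1.32 (SE 0.24, edgeR adjusted p = 0.00340) under mock, and both calls held in all 20 alternative fits.

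ACS11 averaged 2.40 ± 0.15 CPM in er erl2 mock and 13.1 ± 6.79 CPM in wild-type mock (SD, n = 3 each), so that the mutant was at 18.2% of wild type. Its log2 fold change was -2.45 (SE 0.42, edgeR adjusted p = 0.00444) under mock, a call kept in all 20 alternative fits. Under IAA the averages were 24.9 ± 7.40 CPM in er erl2 and 34.9 ± 3.21 CPM in wild type (SD, n = 3 each), and the difference of -0.49 (SE 0.33) on the log2 scale did not pass (edgeR adjusted p = 0.378).

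ACS6 was likewise lower in er erl2 under mock. It averaged 7.61 ± 1.28 CPM in er erl2 mock and 15.6 ± 5.76 CPM in wild-type mock (SD, n = 3 each), a log2 fold change of -1.03 (SE 0.26, edgeR adjusted p = 0.0268). Under IAA it averaged 39.2 ± 5.58 CPM in er erl2 and 41.8 ± 1.16 CPM in wild type (SD, n = 3 each), and the difference of -0.09 (SE 0.23) did not pass (edgeR adjusted p = 0.834). The mock call held in 14 of 20 alternative fits and was lost without wild-type mock replicate 2 or 3 or er erl2 mock replicate 1 or 3, with an edgeR adjusted p of up to 0.101, in a fit of the mock groups alone (edgeR adjusted p = 0.0878) and under a block by replicate number.

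ACS7 was the member that was higher in the mutant. It averaged 5.50 ± 0.75 CPM in er erl2 IAA and 3.37 ± 0.070 CPM in wild-type IAA, and 7.54 ± 1.5 CPM in er erl2 mock and 4.78 ± 0.86 CPM in wild-type mock (SD, n = 3 each). The log2 fold changes were 0.71 (SE 0.17, edgeR adjusted p = 0.0137) under IAA and 0.66 (SE 0.17, edgeR adjusted p = 0.0149) under mock. The IAA call was lost without er erl2 IAA replicate 3 (edgeR adjusted p = 0.0609), and the mock call without wild-type mock replicate 3 or er erl2 mock replicate 1, with an edgeR adjusted p of up to 0.0725.

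The remaining members had lower estimates in er erl2 that did not pass. For ACS4 the log2 fold change was -0.76 (SE 0.31, edgeR adjusted p = 0.143) under IAA and -0.13 (SE 0.37, edgeR adjusted p = 0.855) under mock. The ACS4 difference under IAA passed in limma-voom (adjusted p = 0.0246) and in a fit of the IAA groups alone (edgeR adjusted p = 0.0262). For ACS5 it was -1.03 (SE 0.39, edgeR adjusted p = 0.0944) under IAA and -0.32 (SE 0.48, edgeR adjusted p = 0.711) under mock, and without wild-type mock replicate 1 the IAA difference passed (edgeR adjusted p = 0.0369). For ACS2 it was -0.48 (SE 0.26) under IAA and -0.40 (SE 0.29) under mock. For ACS9 it was -0.72 (SE 0.46, edgeR adjusted p = 0.337) under IAA. Under mock ACS9 had 0 counts in er erl2 and a mean below the limit of 3 counts in wild type, so no fold is given, and its edgeR adjusted p was 0.0986. Without wild-type mock replicate 1, which had 0 counts, that edgeR adjusted p was 0.0347, and in the DESeq2 Wald test it was 0.0382. These p-values are only a description, since ACS9 passed the low-count filter only through its IAA libraries.

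**Figure D3:**
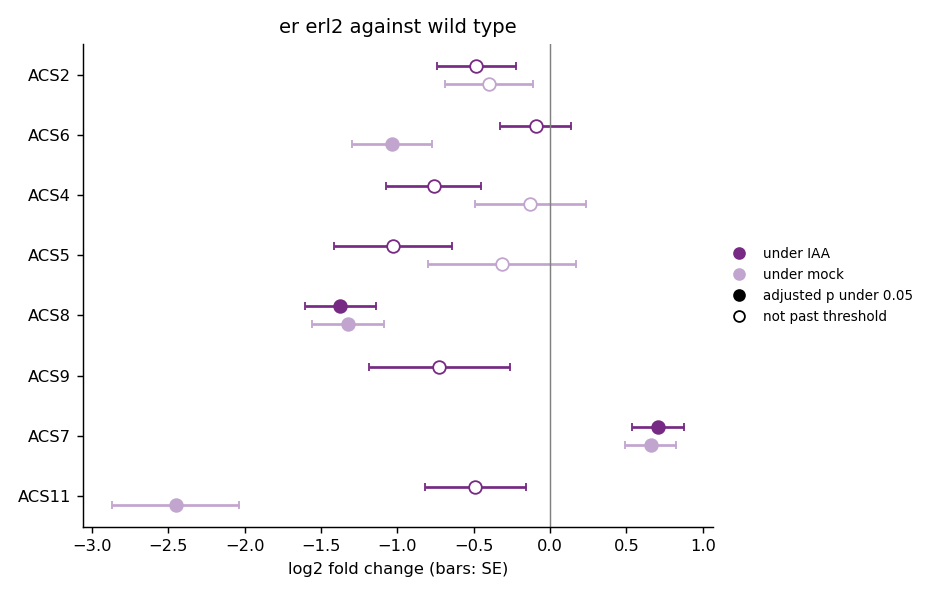
Log2 fold change of er erl2 against wild type for each gene under IAA (dark, upper) and under mock (light, lower), with bars of 1 SE from the edgeR fit; filled points passed an adjusted p of 0.05. ACS8 lay at -1.37 and -1.32, ACS7 at 0.71 and 0.66, and ACS6 and ACS11 passed the threshold under mock alone. ACS9 under mock is not drawn because both group means were under the limit of 3 counts.

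Whether the IAA response itself differed between genotypes was asked by the interaction, the er erl2 response minus the wild-type response. None of the 8 tested members passed (0 called by edgeR, where 0 of 21376 genes were called), and 2 had an unadjusted p under 0.05, against 5.98% of all genes. The DESeq2 Wald test called 16 genes and 0 members. Those 2 were ACS11, with a difference of 1.96 (SE 0.53, edgeR adjusted p = 0.806), and ACS6, with 0.94 (SE 0.35, edgeR adjusted p = 0.806). Without wild-type mock replicate 1, the library with the lowest wild-type ACS6 and ACS11, the ACS6 difference was 1.22 and passed (edgeR adjusted p = 0.0467). ACS4 and ACS5 had differences in the other direction, of -0.63 (SE 0.48) and -0.71 (SE 0.62), and ACS2, ACS7 and ACS8 lay between -0.08 and 0.05.

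Summed over the family, ACS transcripts per length came to 46.3 to 53.8 RPKM in er erl2 IAA libraries and 14.3 to 19.6 RPKM in er erl2 mock libraries. They came to 65.1 to 76.3 RPKM in wild-type IAA and 22.1 to 38.1 RPKM in wild-type mock. In each treatment all er erl2 libraries lay below all wild-type libraries. The make-up of that sum also differed between groups. ACS6 took 38.6% to 44.4% of it in er erl2 IAA, 20.9% to 29.8% in er erl2 mock, 28.6% to 34.1% in wild-type IAA and 21.8% to 32.3% in wild-type mock. ACS7 took 5.51% to 6.99% in er erl2 IAA and 23.1% to 29.6% in er erl2 mock, and 2.55% to 3.10% in wild-type IAA and 6.08% to 12.8% in wild-type mock. ACS11 took 21.0% to 33.2% in er erl2 IAA and 6.25% to 9.44% in er erl2 mock, and 26.2% to 30.1% in wild-type IAA and 16.5% to 29.2% in wild-type mock, where the libraries overlapped. These shares depend on one another, since they are parts of one sum.

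**Figure D4:**
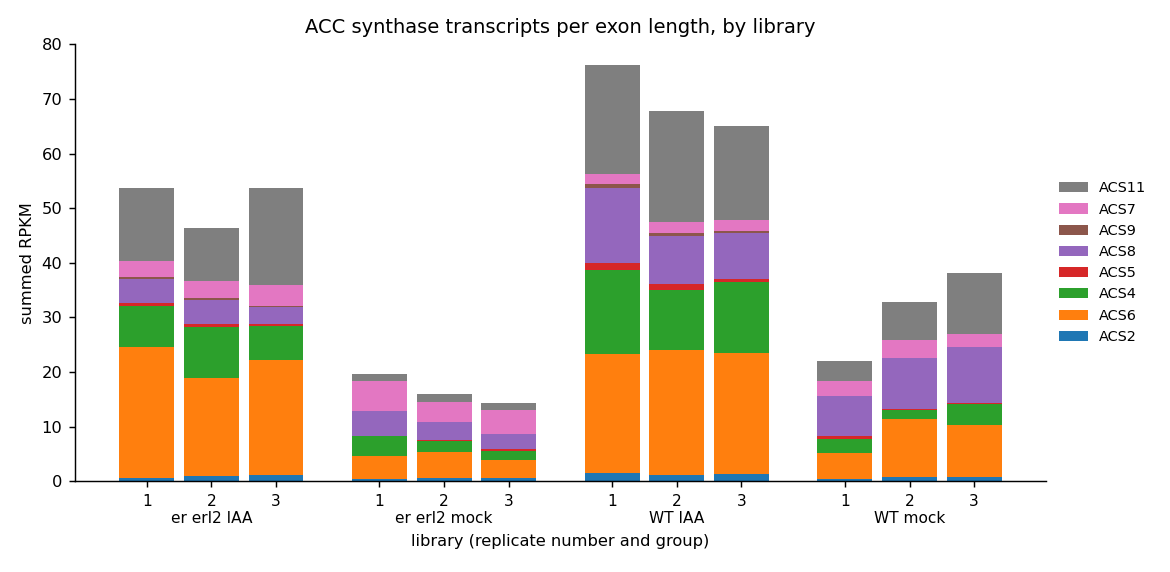
Stacked RPKM (CPM per kilobase of exon) of the 8 ACC synthase genes with reads in each of the 12 libraries. The stacks reach 46.3 to 53.8 in er erl2 IAA, 14.3 to 19.6 in er erl2 mock, 65.1 to 76.3 in wild-type IAA and 22.1 to 38.1 in wild-type mock, and the ACS7 band is a larger part of the er erl2 mock stacks than of the others.

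Members on chromosome 4 differed in their surroundings. Among the 100 tested genes next to ACS6 in locus order, 13 differed between genotypes in both treatments by at least 2-fold in the same direction, and among those next to ACS11 there were 9. Over all genes tested this held for 462, or 2.16%. Around ACS7 and ACS8, also on chromosome 4, and around ACS4 and ACS5 there were 0, and around ACS1 and ACS9, and among the 91 genes tested around ACS2, there was 1 each. The part of these neighbourhoods in the ACS6 and ACS11 differences was not tested.

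The rest of the ethylene pathway was described from gene lists. Of 48 listed genes for S-adenosylmethionine supply, ACC oxidation, ACS protein turnover, ACC conjugation and transport, ethylene perception, signalling and response, 47 were tested. None (0) was called for IAA in either genotype by edgeR, and 8 in er erl2 and 5 in wild type had an unadjusted p under 0.05, against 11.3% of all genes in er erl2 and 9.77% in wild type. Their log2 fold changes ran from -0.72 to 0.63 in er erl2, with a median of -0.03, and from -0.62 to 0.34 in wild type, with a median of -0.01. The median over all genes was 0.00 in each genotype. The 5 ACC oxidases, which carry out the last step, all had negative estimates with IAA in er erl2 (median -0.29) and 4 of 5 had them in wild type (median -0.22), with none past the threshold.

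Between genotypes, 3 of the 47 were lower and 4 higher in er erl2 under IAA, and 4 were lower and 0 higher under mock. Over all genes tested, 6.84% were called lower and 7.14% higher under IAA, and 7.33% lower and 8.4% higher under mock. The genes called are named below as a description. SAM2, a supplier of S-adenosylmethionine, was lower by -0.28 under IAA and -0.22 under mock. EOL2, a relative of ETO1 that targets ACS proteins for turnover, was lower by -0.40 under IAA, and the kinase MPK6 and the phosphatase subunit RCN1, which act on ACS proteins, were lower by -0.17 and -0.16 under mock. GGT1, a gamma-glutamyl transpeptidase, was higher by 0.43 under IAA, as were EBF1, an F-box gene that targets EIN3 (0.26), the ethylene-response gene EDF3 (0.37) and ARGOS, a growth regulator (0.28). OSR1, an ARGOS relative, was lower by -1.05 (SE 0.25, edgeR adjusted p = 0.0101) under mock. The 5 ethylene receptors were not called in any comparison. Outside this list, ACS10, an aminotransferase of the same family without ACC synthase activity, was lower by -0.46 (SE 0.11, edgeR adjusted p = 0.0118) under IAA. ACS10, EOL2, MPK6 and OSR1 overlap other annotated genes, and the strand setting of the counting is not given, so their counts are uncertain. Among the markers, LHCB1.3 and PYK10 also overlap other genes, and CA1 overlaps a gene on its own strand. The same uncertainty holds for their counts.

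**Figure D5:**
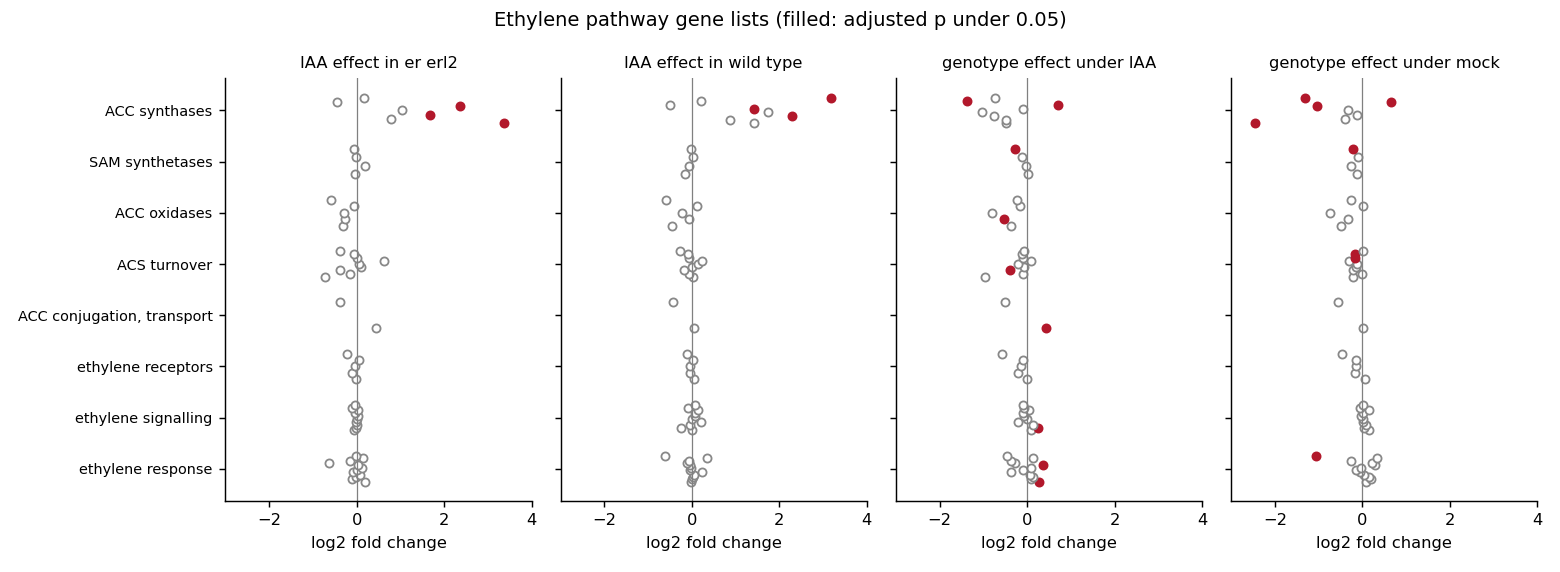
Log2 fold changes of the ACC synthases and of 7 ethylene gene lists in the 4 pairwise comparisons, one point per gene, filled red where the edgeR adjusted p was under 0.05. With IAA the filled points lie in the ACC synthase row alone; ACS9 is left out of the er erl2 IAA and the mock panels because er erl2 mock libraries were at 0.

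Genes whose log2 CPM followed each called member most closely over the 12 libraries were listed by Pearson r, a description that mainly follows the group differences the libraries share. For ACS4 they were AT3G50340 (0.99), AT2G18010 (0.97) and SAUR9 (0.97). For ACS6 they were AT4G01110 (0.99), the kinase gene RIPK (0.98) and AT3G54000 (0.97). For ACS9 they were RTFL19, the Aux/IAA gene SHY2 and the transcription factor gene ERF13, each at 0.96. ACS9 passed the low-count filter only through its IAA libraries, and its mock libraries had 0 to 5 counts. Its list therefore only describes the split between IAA and mock. For ACS11 they were AT4G35200 (0.99), PEPKR1 (0.98) and AT5G66940 (0.98). For ACS7 they were AT5G26670 (0.96), RPL3B (0.96) and ABCG41 (0.95), and for ACS8 they were BOU, AT5G22580 and AT2G04039, each at 0.97.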

How the data were processed

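Poly-A selected, directional libraries of whole seedlings were sequenced per the labels' protocols. The values the authors deposited are raw gene counts, in a table whose columns are the libraries. The submitters' processing notes name bcl2fastq, STAR 2.7.6a, featureCounts 2.0.0 and the TAIR10 build. The annotation, the strand setting and the handling of reads with several matches are not given in the sources used here. The table carries no coordinates. Gene models, lengths, coordinates and sequences come from RefSeq's TAIR10.1 genome and annotation.

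Counts were fitted with edgeR 4.0.16 in R 4.3.3, after filterByExpr (minimum count 10, minimum total 15), which kept 21376 genes, and TMM scaling with factors of 0.973 to 1.02. A robust quasi-likelihood model with 1 mean per group used all 12 libraries. P-values were adjusted by Benjamini-Hochberg over all genes tested, and SE is the size of a log2 fold change over the square root of its F. Log2 CPM used a prior count of 2. The procedure was tested on simulated counts.

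The alternatives were no count filter, a mean CPM of at least 1, limma-voom (limma 3.58.1), scaling by DESeq2 size factors, a Wald test in DESeq2 1.42.0, blocks by replicate number, fits of only the groups compared, leaving out each library, and other gene lengths. The members, lists and tests were chosen with earlier results of these data known. All 9 members are named whatever their values, as are listed pathway genes that passed, except 1 that is not reported here, and the 3 genes most like each called member.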

Additional observations from a re-analysis of the deposited data

How the results depend on the processing

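The number of ACS genes called for IAA in wild type, 3, became 5 with the DESeq2 Wald test, 1 with a replicate block and 1 in a fit of the wild-type groups alone. For IAA in er erl2 the 4 calls became 2 in a fit of the er erl2 groups alone, where ACS9 was not tested. The counts of 3 and 4 include ACS9, whose calls with IAA are only a description. The other 35 of 39 such counts stayed within 1.5 times. With each library left out in turn, the counts ran from 1 to 4 for IAA in wild type, 3 to 4 for IAA in er erl2, 2 to 5 between genotypes under mock, 1 to 3 between genotypes under IAA and 0 to 1 for the interaction.

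The replicate block took its numbers from the titles. Correlations of same-numbered deviations from the group means were -0.144 to 0.0935, so no clear shared effect was seen. They cannot tell whether same-numbered libraries were grown or handled together. A block by the numbers in the column names gave -0.144 to 0.0762. Under this second block the ACS5 genotype difference under mock changed sign to 0.24 and the ACS2 interaction to 0.0045, neither past the threshold. Calls were lost under the first block for ACS6 with IAA in wild type (edgeR adjusted p = 0.0593), ACS6 between genotypes under mock (0.0524, edgeR), ACS4 with IAA in er erl2 (0.0788, edgeR) and ACS9 with IAA in wild type (0.0760, edgeR). Under the second block ACS4 lost its calls with IAA in er erl2 (0.138, edgeR) and wild type (0.0634, edgeR), ACS9 its call in wild type (0.0934, edgeR), and ACS5 gained one there (0.0363, edgeR).

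With single libraries left out, signs also changed for values that had not passed. The ranges on the log2 scale were -0.59 to 0.48 for ACS5 and -0.55 to 0.22 for ACS4 between genotypes under mock, -0.20 to 0.019 for ACS6 between genotypes under IAA and -0.058 to 0.35 for ACS8 with IAA in wild type. For the interaction they were -0.31 to 0.17 for ACS2, -0.089 to 0.21 for ACS7 and -0.19 to 0.22 for ACS8. The causes of these changes were not tested. A minimum mean CPM of 1 left ACS5 and ACS9 untested. At these depths ACS1, and ACS9 under mock, lay at or near the limit of 3 counts.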
